A study of Mus musculus with 6 samples.

Results

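The genes of DNA replication origins and forks were compared between 2 genotypes of mouse neural cells. They are 49 genes of the 55487 in the deposited expression table. These encode the origin recognition complex, its loading factors and geminin, and the replicative helicase with its activators. They also encode the replicative polymerases, the sliding clamp and its loaders, and the single-strand binding and fork factors. The set was fixed by gene symbol, each symbol matched exactly 1 row, and all 49 genes passed the filter on low values. They fall into 13 complexes or functional groups.

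The cells were YFP-positive cells sorted from the subventricular zone (SVZ), the stem cell niche along the lateral ventricles of the mouse brain. TKO cells came from Rb(F/F);p107(-/-);p130(F/F) mice and THC cells from Rb(F/+);p107(+/-);p130(F/+) mice, so the comparison cells also carried 1 altered allele of each of these retinoblastoma family genes. Both genotypes carried NestinCreERT2, a tamoxifen-inducible Cre recombinase under Nestin control, with the R26;EYFP reporter on a C57BL/6;Sv/129 background. Animals entered the experiment at 6 to 10 weeks of age, were gavaged with tamoxifen (200 mg/kg daily for 5 days), and were sampled 10 days after the final dose. The sort marks cells that had Cre activity and is not a sort for a cell type. SVZ tissue of multiple mice was pooled to reach at least 200000 YFP-positive cells per sample. There were 3 TKO and 3 THC samples, of which the label February covers 1 of each genotype and the label November 2 of each.

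Replication begins when the origin recognition complex (ORC), with Cdc6 and Cdt1, loads the MCM2-7 helicase onto origin DNA in G1. At the start of S phase the Cdc7-Dbf4 kinase, Cdc45 and GINS convert the loaded helicase into an active one, and polymerases alpha, epsilon and delta copy the DNA behind it with the clamp PCNA. Many of these genes are textbook targets of E2F transcription factors, which the retinoblastoma family proteins pRb, p107 and p130 bind and restrain.

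The libraries held 15536084 to 16961817 reads assigned to genes. The targeted p107 gene Rbl1 was at 42.0, 18.3 and 14.5 normalized counts in the TKO libraries, against 520.2, 497 and 646 in the THC libraries, which fits the labelled genotypes. The floxed genes Rb1, at 3349.5, 3573 and 2877 in TKO and 2022, 1631 and 1895 in THC, and Rbl2 (p130), at 931, 976 and 912 in TKO and 1249.9, 1028 and 847 in THC, are counted over the whole gene, which checks neither recombination nor the label. A normalized count is a read count divided by a size factor of its library. Astrocyte and stem cell (Gfap), neuroblast (Dcx) and oligodendrocyte (Mbp) markers were present in all 6 libraries, so the sorted cells were a mixture. In such bulk samples a change in the number of cells of a type and a change in RNA per cell cannot be told apart.

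Nearly the whole replication machinery was higher in TKO cells. Of the 49 genes, 45 were higher and 0 were lower at an adjusted p under 0.05 in limma, whereas 14.3% of the 17278 genes tested were called higher and 13.6% lower. The smallest of the 45 increases was 0.47 and the largest 2.12 on the log2 scale. The median log2 change over the 49 genes was 1.19, beside 0.00 over all genes tested, with interquartile ranges of 0.86 to 1.43 and -0.36 to 0.36. In 33 genes the called increase was at least 1 on the log2 scale, beside 7.37% of all genes tested. Every TKO library lay above every THC library for 46 of the 49 genes, beside 19.4% of all genes tested. A log2 change here is the difference in log2(normalized count + 1), TKO minus THC, fitted with the batch label as a term. The genes that did not pass were Orc3, Orc4, Orc5 and Fen1. At an unadjusted p under 0.05, 0 of the 49 were lower. The authors' deposited table gives 45 of the 49 as higher and 0 as lower at an adjusted p under 0.05, where 14.1% of the genes tested here were higher. The p-values measure the spread between these pools of mice.

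**Figure D1:**
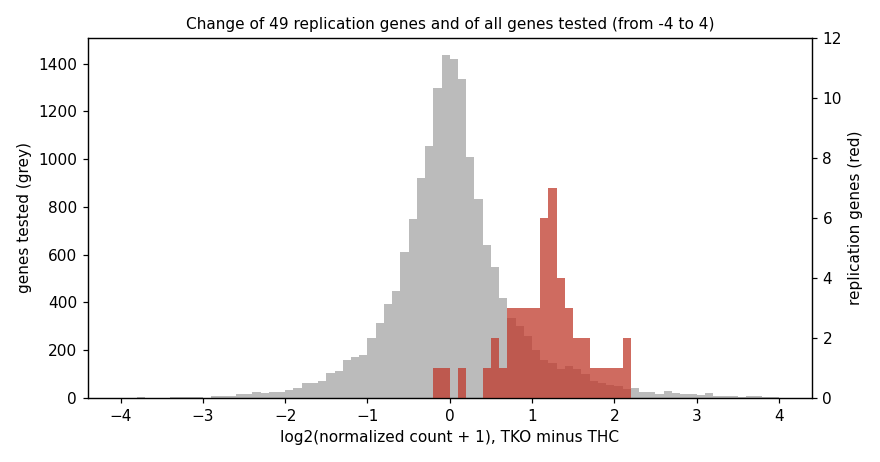
Distribution of log2 changes, TKO minus THC, in bins of log2(normalized count + 1), for all genes tested (grey, left axis) and for the 49 replication genes (red, right axis, its own scale). The replication genes center on 1.19 and all genes tested on 0.00.

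The level of the set was more even across TKO libraries than across THC libraries. The mean of log2(normalized count + 1) over the 49 genes was 11.01, 11.17 and 10.95 in TKO 1, 2 and 3, and 9.75, 9.75 and 10.16 in THC 1, 2 and 3. THC 3 was the highest THC library for 43 of the 49 genes, and TKO 2 the highest TKO library for 36. The median coefficient of variation of the normalized counts was 10.0% in TKO and 19.2% in THC (n = 3 each). Without THC 3 the median log2 change was 1.35.

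**Figure D2:**
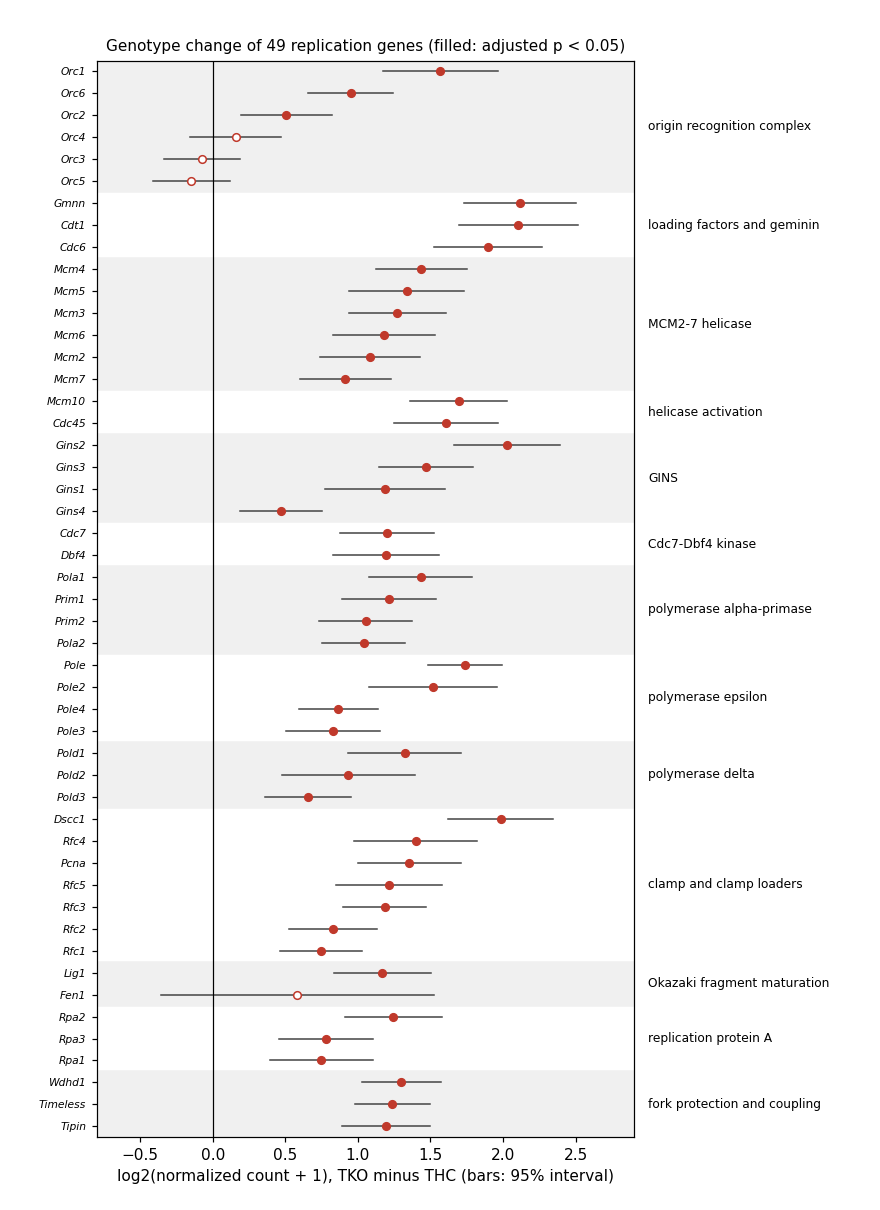
Log2 change, TKO minus THC, of each of the 49 genes with its 95% interval from the limma fit over 3 TKO and 3 THC libraries, grouped by complex. Filled points passed at an adjusted p under 0.05, and open points mark Orc3, Orc4, Orc5 and Fen1, whose intervals include 0.

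The 6 subunits of ORC, which marks origins, did not change together. Orc1, Orc6 and Orc2 rose, and Orc3, Orc4 and Orc5 did not pass. Orc1, the ATPase subunit that cycles on and off chromatin in mammalian cells (chromosome 4, 108579423 to 108614833, GRCm38), had 426, 401 and 361 normalized counts in TKO libraries, against 133, 122 and 143 in THC libraries. The groups were far apart, and the log2 change was 1.57 (SE 0.18, adjusted p = 5.7e-05). Orc6, the subunit least like the other ORC proteins, had 2188, 2414 and 2173 normalized counts in TKO and 1084, 1064 and 1382 in THC. Its change was 0.95 (SE 0.13, adjusted p = 0.00025). Orc2 had 1379, 1574 and 1315 normalized counts in TKO and 955, 879 and 1188 in THC, a change of 0.51 (SE 0.14, adjusted p = 0.021). The Orc2 groups were close without overlapping, and the call ended in 5 of 14 other settings (adjusted p = 0.064 to 0.09 there, 0.0085 to 0.09 over all 14). November only, without THC 1 and without TKO 1 are among these and give the same change of 0.49, so they are not separate results. Exons of other genes share 29.8% of the exonic bases of Orc2, the largest part with Nif3l1 on the opposite strand.

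Orc3, Orc4 and Orc5 are core ORC subunits. Orc3 had 1569, 1681 and 1456 normalized counts in TKO, against 1764, 1571 and 1626 in THC. Orc4 had 1549.8, 1799 and 1456 normalized counts in TKO and 1646, 1199 and 1482 in THC. For both genes the libraries of the genotypes overlapped. Orc5 (chromosome 5, 22486485 to 22550429, GRCm38) had 881, 803 and 856 normalized counts in TKO and 995, 925 and 895 in THC, so each TKO library was slightly below each THC library. The log2 changes were -0.08 for Orc3 (95% interval -0.34 to 0.19), 0.16 for Orc4 (-0.16 to 0.47) and -0.15 for Orc5 (-0.41 to 0.12), with adjusted p = 0.69, 0.46 and 0.41. These intervals lie below the change of Orc6, which was 0.95.

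The subunits were then compared within each library. Such relative levels sum to 0 over a complex, so a shift up in some subunits entails a shift down in others. Relative to the mean log2 level of the 6 subunits, Orc1 stood at -1.47, -1.63 and -1.62 in TKO and at -2.68, -2.64 and -2.63 in THC. That difference of 1.08 separated the groups completely. Orc6 was shifted by 0.46 in the same direction, and Orc3, Orc4 and Orc5 by -0.57, -0.34 and -0.64. For each of these 5 genes the groups did not overlap, and the exact two-sided permutation test gave p = 0.10, the smallest that 3 against 3 libraries can give. For Orc2 the genotypes overlapped, with a shift of 0.01 (exact permutation p = 0.90). Per kilobase of exon, Orc6 was the most abundant ORC transcript in both genotypes, with 45.6% ± 0.75 of the summed ORC level in TKO and 34.1% ± 2.70 in THC (SD, n = 3 each). Orc1 was the least abundant in both, with 5.68% ± 0.46 in TKO and 2.74% ± 0.03 in THC. Exon length here is the union of all annotated exons of a gene, so levels per kilobase compared between genes depend on the annotation.

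**Figure D3:**
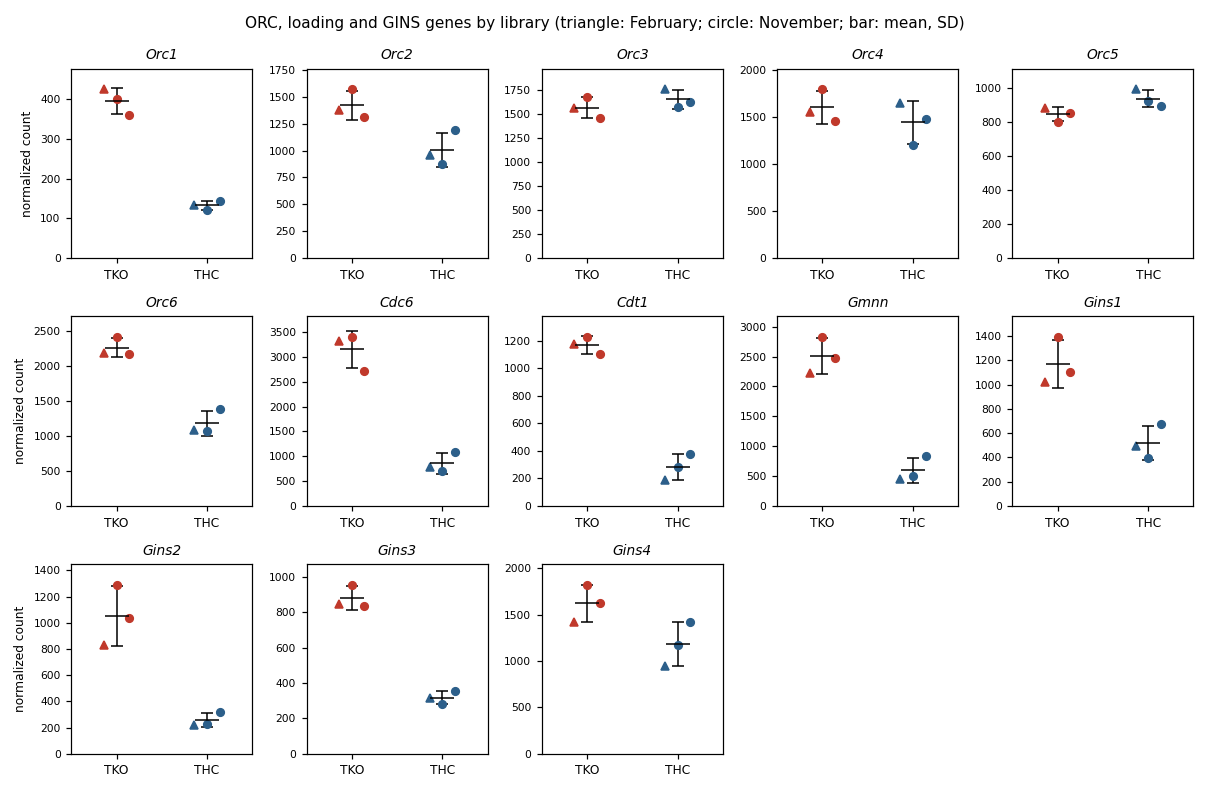
Normalized counts of the ORC, loading, geminin and GINS genes in each library, with TKO left of THC. Triangles mark the February libraries, circles the November libraries, and horizontal and vertical bars the mean and SD (n = 3). The TKO points lie above the THC points in every panel except those of Orc3, Orc4 and Orc5.

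The group of loading factors and geminin had the highest median log2 change of the 13 groups, at 2.11, and all 3 genes rose. Cdc6, an ATPase that joins ORC to load the helicase, had 3328, 3406 and 2722 normalized counts in TKO, against 784, 696 and 1091 in THC (log2 change 1.90, SE 0.17, adjusted p = 9.9e-06). Gmnn, which encodes geminin, the protein that binds Cdt1 and blocks relicensing (chromosome 13, 24751845 to 24761923, GRCm38), had 2221, 2832 and 2481 in TKO and 455, 501 and 838 in THC (2.12, SE 0.18, adjusted p = 6.1e-06). In both genes every TKO library was far above every THC library. Cdt1, the partner that brings MCM2-7 to the origin, rose by 2.11 (SE 0.19). The log2 level of Gmnn relative to the 3-gene mean differed by 0.08 between genotypes, that of Cdt1 by 0.07 and that of Cdc6 by -0.14, with overlap in each case (exact permutation p = 0.40, 0.70 and 0.40). The Cdt1 increase was 2.64 in the February pair and 1.84 in November.

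All 6 genes of the MCM2-7 helicase, a ring of related subunits that unwinds the DNA, rose, with a narrow range of log2 changes from 0.91 to 1.44. Mcm4 (chromosome 16, 15623897 to 15637400, GRCm38) had 9597, 8122 and 7138 normalized counts in TKO, against 3206, 2577 and 3386 in THC (1.44, SE 0.14, adjusted p = 2.1e-05). Mcm7 had 9084, 9975 and 7947 in TKO and 4325, 4639 and 5366 in THC (0.91, SE 0.14, adjusted p = 0.0006). Mcm5, Mcm3, Mcm6 and Mcm2 lay between them, at 1.34, 1.27, 1.18 and 1.08. Relative to the mean of the 6 subunits, Mcm7 was lower in TKO by 0.29 without overlap of the groups (exact permutation p = 0.10, the smallest possible). Mcm6 was shifted by -0.02 (exact permutation p = 0.30). For Mcm2, Mcm3, Mcm4, Mcm5 and Mcm6 the genotypes overlapped in this relative level. Per kilobase of exon the 6 levels were uneven in both genotypes. Mcm4 made up 20.7% ± 1.56 of the summed level in TKO and 17.7% ± 1.59 in THC. Mcm2 made up 8.12% ± 0.85 in TKO and 8.81% ± 0.22 in THC. The annotated exons of Mcm2 span 6956 bases and those of Mcm4 3589, which enters these shares.

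Promoter sequences were inspected because the members rose together and E2F sites are the known link to the retinoblastoma family. Of the 49 genes, 39 had an entry in the RefSeq promoter table (GRCm38.p6), which holds 250 bases before and 50 bases after a start site. The letters TTTCCCGC, TTTGGCGC, TTTCGCGC and TTTGCCGC, forms of the E2F consensus, were searched on both strands, and overlapping matches were each counted. At least 1 match was in the promoters of 16 of these 39 genes (41.0%), beside 2.27% of all 32851 promoters, 4.44% of the 12151 tested genes with an entry and 9.43% of the 1846 of these called higher. The median GC content was 61.3% for the members and 60.3% for tested genes. Matches were in 4 of 5 MCM genes, 2 of 2 loading factors and 2 of 6 ORC genes, and in none of the 3 replication protein A genes. The 8 ORC, loading and MCM genes with a match are shown in a window of 30 bases, 5′ to 3′ on the strand of the gene, with the matched letters in capitals.
Orc1 (chr4:108579418-108579447, plus strand): cggttagtgGCGCGAAAagttttctcctgt
Orc3 (chr4:34614963-34614992, minus strand): atgcctcccTTTCCCGCacgccccgcctcc
Cdc6 (chr11:98908004-98908033, plus strand): cggtggagaGCGGGAAAtcgcctggggtct
Cdt1 (chr8:122568035-122568064, plus strand): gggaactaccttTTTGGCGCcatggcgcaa
Mcm3 (chr1:20820273-20820302, minus strand): acttccgtgGCGGGAAAacttgggaagttt
Mcm5 (chr8:75109347-75109376, plus strand): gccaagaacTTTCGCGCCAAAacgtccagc
Mcm6 (chr1:128359795-128359824, minus strand): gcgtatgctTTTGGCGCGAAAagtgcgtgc
Mcm7 (chr5:138171847-138171876, minus strand): gtgacgacgTTTCGCGCcaatttcggttgg
In Mcm5 and Mcm6 the capitals run over 2 overlapping matches, 1 on each strand.

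Members with and without a match overlapped widely in their change. Orc3 has one and did not pass, and the 23 members with an entry but no match had a median log2 change of 1.08 (range -0.15 to 1.69), beside 1.30 (range -0.08 to 2.11) for the 16 with a match. Other elements of cell-cycle promoters were also searched on both strands. The cell-cycle homology region letters TTTGAA and TTCGAA were in 9 of the 39 genes (23.1%), beside 19.2% of all single promoters, 16.5% of tested genes and 23.1% of genes called higher. The CCAAT box was in 21 (53.8%), beside 37.4% of single promoters, 42.6% of tested genes and 49.5% of genes called higher. A match is only a match of letters. Longer exon-free stretches before the start site are shown for Orc1, with the highest signed log2 change in ORC, for Orc5, Cdc6 and Mcm7, with the lowest signed change in ORC, the loaders and MCM2-7, and for Mcm6, which was chosen after its 3 matches were seen.
Orc1 (chr4:108579337-108579422, plus strand): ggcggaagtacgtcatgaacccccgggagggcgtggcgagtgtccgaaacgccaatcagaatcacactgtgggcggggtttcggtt
Orc5 (chr5:22550473-22550588, minus strand): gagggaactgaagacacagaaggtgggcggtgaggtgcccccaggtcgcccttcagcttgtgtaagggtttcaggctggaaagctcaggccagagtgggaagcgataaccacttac
Cdc6 (chr11:98907982-98908150, plus strand): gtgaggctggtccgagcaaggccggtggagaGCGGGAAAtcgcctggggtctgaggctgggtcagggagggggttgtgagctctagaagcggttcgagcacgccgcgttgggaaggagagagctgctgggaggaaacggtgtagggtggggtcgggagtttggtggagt
Mcm7 (chr5:138171267-138171466, minus strand): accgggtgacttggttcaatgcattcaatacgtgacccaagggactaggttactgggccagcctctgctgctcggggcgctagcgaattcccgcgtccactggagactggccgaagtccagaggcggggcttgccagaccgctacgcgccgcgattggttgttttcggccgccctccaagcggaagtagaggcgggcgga
Mcm6 (chr1:128359706-128359905, minus strand): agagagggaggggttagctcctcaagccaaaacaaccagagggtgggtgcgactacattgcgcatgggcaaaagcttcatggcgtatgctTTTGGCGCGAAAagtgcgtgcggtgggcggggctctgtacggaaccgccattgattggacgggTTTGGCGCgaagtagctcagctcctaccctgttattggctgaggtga
Capitals mark the E2F-type letters, which occur in the Cdc6 and Mcm6 stretches and not in the others. The Orc1 stretch ends just before its match, and the Mcm7 stretch belongs to another start site than the window above.

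The genes that turn the loaded helicase into the active one also rose. Cdc45, which joins MCM2-7 and GINS in the moving helicase, had 2531, 2934 and 2596 normalized counts in TKO, against 828, 716 and 1152 in THC (log2 change 1.61, SE 0.16, adjusted p = 2.4e-05). Mcm10, an activation factor unrelated to the MCM2-7 ring, had 1811, 1407 and 1423 in TKO and 460.1, 411 and 564 in THC (1.69, SE 0.15, adjusted p = 1.1e-05). Both subunits of the Dbf4-dependent kinase rose by nearly equal amounts. Cdc7, the catalytic subunit, had 2904, 3349 and 2925 normalized counts in TKO and 1290.0, 1114 and 1623 in THC (1.20, SE 0.15, adjusted p = 9.8e-05). Dbf4, its activator, had 1413, 1815 and 1735 in TKO and 664, 588 and 950.3 in THC (1.19, SE 0.17, adjusted p = 0.00024). No TKO library of any of these genes overlapped a THC library.

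GINS, a complex of 4 subunits that join in equal numbers, changed unevenly. Gins2 (chromosome 8, 120578633 to 120589304, GRCm38) had 834, 1292 and 1035 normalized counts in TKO, against 223, 229 and 319 in THC (log2 change 2.03, SE 0.17, adjusted p = 5.7e-06). Gins4 had 1420.0, 1825 and 1622 in TKO and 946, 1178 and 1419 in THC (0.47, SE 0.13, adjusted p = 0.017). The highest THC value of Gins4 was just under its lowest TKO value, and its call ended in 6 of 14 other settings (adjusted p = 0.065 to 0.093 there, 0.011 to 0.093 over all 14). Here too November only, without THC 1 and without TKO 1 give the same change, 0.41. Gins3 and Gins1 rose by 1.47 and 1.19. Relative to the GINS mean, Gins2 was higher in TKO by 0.74 and Gins4 was lower by 0.82, each without overlap of the groups (exact permutation p = 0.10, the smallest possible). Gins4 was the most abundant GINS transcript per kilobase of exon, with 47.1% ± 1.14 of the summed level in TKO and 62.5% ± 4.51 in THC. Gins2 took 9.99% ± 0.83 in TKO and 4.48% ± 0.13 in THC. Exons of other genes share 67.3% of the exonic bases of Gins2, the largest part with Gse1 on the opposite strand. Gins2 counts may therefore hold or lack reads of that overlap, and the part of this in the Gins2 values was not tested.

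**Figure D4:**
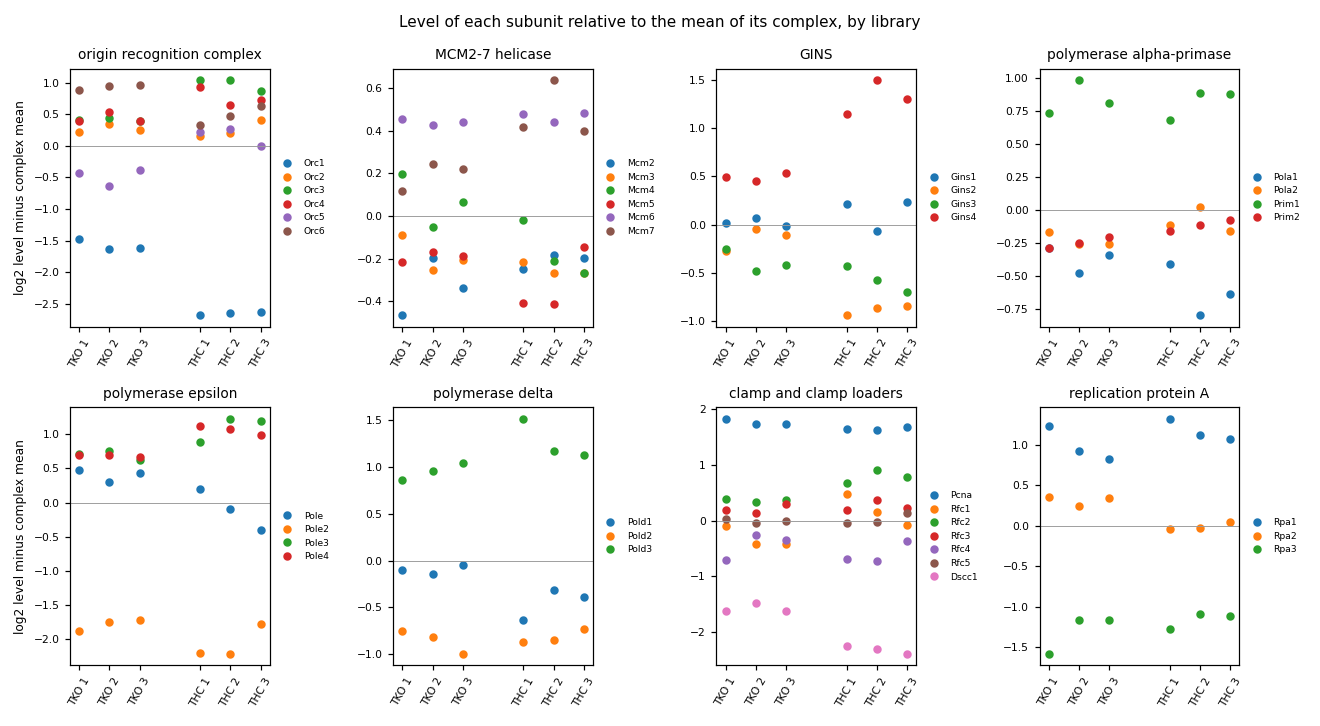
Log2 level of each subunit minus the mean of its complex (vertical axis) in each TKO and THC library, for 8 complexes. Orc1, Orc6, Gins2, Pole, Pold1, Pcna, Dscc1 and Rpa2 stand higher within their complex or group in all 3 TKO libraries than in any THC library. Orc3, Orc4, Orc5, Mcm7, Gins4, Pola2, Prim2, Pole3, Pole4, Pold3, Rfc1 and Rfc2 stand lower.

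All 11 polymerase genes of the set rose, and the catalytic subunit had the largest estimated change in each of the 3 polymerases. In each, its 95% interval overlapped that of the subunit with the next largest change (Pole2, Pold2 and Prim1). Pold4, a further delta subunit, is outside the set and the delta mean below, and did not pass (-0.29, adjusted p = 0.60 in limma). Pole, the catalytic subunit of the leading-strand polymerase epsilon (chromosome 5, 110286306 to 110337474, GRCm38), had 2768, 2690.0 and 2698 normalized counts in TKO, against 907, 757 and 783 in THC (log2 change 1.74, SE 0.12, adjusted p = 2.2e-06). Pole3, a histone-fold subunit, had 3234, 3679 and 3084 in TKO and 1468, 1882 and 2378 in THC (0.83, SE 0.15, adjusted p = 0.0014). Pole4, the partner of Pole3, rose by a like 0.86, and Pole2 rose by 1.52. Relative to the epsilon mean, Pole was higher in TKO by 0.50, and Pole3 and Pole4 were lower by 0.41 and 0.37, all without overlap (exact permutation p = 0.10 each, the smallest possible).

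In polymerase delta, which copies the lagging strand, the catalytic subunit Pold1 had 1219, 1302 and 1065 normalized counts in TKO, against 339, 507 and 628 in THC (1.32, SE 0.18, adjusted p = 0.00019). Pold3 had 2383, 2789 and 2264 in TKO and 1499.5, 1423 and 1798 in THC (0.66, SE 0.14, adjusted p = 0.0036). Relative to the delta mean, Pold1 was higher in TKO by 0.35 and Pold3 lower by 0.31, without overlap (exact permutation p = 0.10 each). Pold2 rose by 0.93 and overlapped in relative level (-0.04, exact permutation p = 0.80). Polymerase alpha-primase, which lays down primers, had log2 changes from 1.04 to 1.43. Its catalytic subunit Pola1 had 1688, 1662 and 1669.9 normalized counts in TKO and 661, 478 and 752 in THC (1.43, SE 0.16, adjusted p = 5.0e-05). The accessory subunit Pola2 had 1835, 1936 and 1766 in TKO and 813, 843 and 1049 in THC (1.04, SE 0.13, adjusted p = 0.00012). The primase genes Prim1 and Prim2 rose by 1.21 and 1.06. Relative to the alpha-primase mean, Pola1 (0.25, exact permutation p = 0.20) and Prim1 (0.03, exact permutation p = 0.90) overlapped. Pola2 and Prim2 were lower in TKO by 0.14 and 0.13 without overlap (exact permutation p = 0.10 each).

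All 7 genes of the set that encode the sliding clamp and its loaders rose. Pcna, the ring that tethers polymerases to DNA, rose by 1.35 (SE 0.16, adjusted p = 7.7e-05), and it was the most abundant of the 49 transcripts per kilobase of exon, at 4086 ± 323 normalized counts in TKO and 1624.5 ± 399.9 in THC. Rfc1, the large subunit of the canonical loader, had 2456, 2404 and 2094 normalized counts in TKO, against 1482, 1199 and 1474 in THC (0.75, SE 0.13, adjusted p = 0.0011). The small subunits Rfc2, Rfc3, Rfc4 and Rfc5, which several loaders share, rose by 0.83, 1.19, 1.40 and 1.21. Dscc1 belongs to the alternative loader that acts in sister chromatid cohesion. It had 857, 1149.9 and 912 normalized counts in TKO and 224, 218 and 295 in THC (1.98, SE 0.17, adjusted p = 5.9e-06). Relative to the mean of the 7 genes, Dscc1 was higher in TKO by 0.74 and Rfc1 lower by 0.50, both without overlap (exact permutation p = 0.10 each, the smallest possible).

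On the lagging strand, Lig1, the ligase that seals Okazaki fragments, rose, with 4018, 3634 and 3186 normalized counts in TKO against 1343, 1577 and 1931 in THC (log2 change 1.17, SE 0.15, adjusted p = 0.00015). Fen1, the flap nuclease that acts just before it, was counted at 20.5, 30.1 and 19.3 in TKO and 12.03, 16.1 and 17.2 in THC, by far the lowest of the 49 genes. The groups did not overlap, but the change of 0.58 had a wide 95% interval of -0.36 to 1.53 and did not pass (SE 0.43, adjusted p = 0.36). In GENCODE M21, 84.2% of the exonic bases of Fen1 (chromosome 19, 10199132 to 10204169, GRCm38) also lie in exons of other genes. The antisense gene Gm10143 shares the largest part. These library kits do not mark strand, and reads from the shared bases cannot be assigned to either gene. Only Fen1 and Gins2 shared more than 50% of their exonic bases with other genes.

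Replication protein A, the trimer that coats single-stranded DNA, rose in all 3 subunits. Rpa2, the subunit phosphorylated in the cell cycle and after damage, had 3266, 3631 and 2993 normalized counts in TKO, against 1153, 1302 and 1779.5 in THC (log2 change 1.24, SE 0.15, adjusted p = 9.4e-05). Rpa1, the large DNA-binding subunit, had 6027, 5787 and 4189 in TKO and 2963, 2874 and 3616 in THC (0.75, SE 0.16, adjusted p = 0.0047). Rpa3 rose by 0.78. Relative to the trimer mean, Rpa2 was higher in TKO by 0.32 without overlap (exact permutation p = 0.10, the smallest possible), whereas Rpa1 (-0.18, p = 0.30) and Rpa3 (-0.14, p = 0.50) overlapped. The 3 fork protection and coupling genes rose by 1.19 to 1.30. Tipin had 4187, 5059.7 and 4449 normalized counts in TKO and 1639.9, 1917 and 2513 in THC (1.19, SE 0.14, adjusted p = 6.3e-05). Wdhd1, which links the helicase to polymerase alpha, had 2648, 2498 and 2143 in TKO and 1048, 879 and 1028 in THC (1.30, SE 0.13, adjusted p = 1.7e-05). Timeless, the partner of Tipin, rose by 1.24.

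Across the set, the log2 changes within a group spanned 1.72 in ORC, 1.56 in GINS and 1.24 in the clamp and clamp loaders. The span was 0.91 in polymerase epsilon, 0.66 in polymerase delta, 0.59 in Okazaki fragment maturation, 0.52 in MCM2-7 and smaller in the others. With 3 libraries per genotype, 0.10 is the smallest p that the exact permutation test can give for a relative level.

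The increases were seen in both batches. The median log2 change was 1.30 in the February pair and 1.13 in November, with positive values in 46 of the 49 genes in February and 47 in November. The February value exceeded the November value in 36 genes. The gap was wide for the delta subunits Pold1, with 1.84 in February and 1.06 in November, and Pold2, with 1.43 and 0.69. February holds 1 library per genotype, so the difference between batches was not tested.

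Other replication genes, 43 factors that act with these complexes, were read beside them, with 42 passing the filter on low values. Chtf8 did not pass it and was not tested. Of those, 30 rose and 0 fell in limma (0 were lower at an unadjusted p under 0.05), with a median log2 change of 1.04. The largest increases were in Polh, a translesion polymerase (2.12, SE 0.18, adjusted p = 7.9e-06), Clspn, which encodes the checkpoint mediator claspin (1.78, SE 0.15, adjusted p = 6.9e-06), and Dtl, the ubiquitin ligase adaptor that targets Cdt1 (1.71, SE 0.14, adjusted p = 5.9e-06). Polh had 467, 383 and 426 normalized counts in TKO, against 112, 91.6 and 87.9 in THC. Clspn had 754, 989.8 and 1125 in TKO and 216, 274 and 350.4 in THC. Dtl had 5993, 5300.4 and 5495 in TKO and 1896, 1361 and 1915 in THC, so that for all 3 genes the genotypes were well apart.

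The lowest changes of that list did not pass and their genotypes overlapped. Pold4, the smallest subunit of polymerase delta, had 31.2, 45.1 and 60.8 normalized counts in TKO and 71.2, 52.9 and 42.4 in THC (-0.29, SE 0.36, adjusted p = 0.60). Its February value was -1.16 and its November value 0.14. Top1, the topoisomerase that relieves supercoils, had 2439, 3486 and 2903 in TKO and 3373, 2844 and 3776 in THC (-0.18, SE 0.15, adjusted p = 0.41). Smarcal1, a fork remodeller, had 607, 643 and 493 in TKO and 654, 640.3 and 669 in THC (-0.18, SE 0.15, adjusted p = 0.40).

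Markers of proliferation and of other cell types moved with genotype beside these genes. All 10 mitotic markers rose, with a median log2 change of 1.45, and their summed normalized counts were 71458 to 82766 in TKO and 22080 to 33869 in THC. Of 10 oligodendrocyte genes 7 fell, with a median of -2.04 and sums of 20758 to 33596 in TKO and 91774 to 106029 in THC. Mbp, a myelin protein, was among them (-1.77). The other oligodendrocyte genes, Sox10, Olig1 and Pdgfra, did not pass (0.005, -0.03 and 0.42). Of 10 endothelial genes 9 fell (median -1.24, or -0.63 in February and -1.58 in November), and Cldn5, a tight junction protein, was at -1.64. Endothelial sums were 3122 to 4352 in TKO and 7063, 15845 and 6974 in THC 1, 2 and 3, with THC 2 far above the other THC libraries. Of 10 mural genes 5 fell (median -1.12, or -0.52 in February and -1.39 in November), with sums of 4593 to 7799 in TKO and 11379 to 17759 in THC, and Pdgfrb, the pericyte receptor, was at -1.32.

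Neuroblast genes fell in 6 of 10 cases (median -0.52), with sums of 47822 to 78505 in TKO and 54186 to 76973 in THC, and Dcx was among them at -0.73. Of 10 stem cell and astrocyte genes 4 fell and 2 rose (median -0.46), with sums of 171075 to 218909 in TKO and 196792 to 315374 in THC. Gfap was 1 of those that rose, by 2.01. Of 10 microglial genes 4 passed as higher (median 1.02), but for all 10 the genotypes overlapped. Their sums were 7294, 2067 and 1414 in TKO 1, 2 and 3 and 4768, 1379 and 1007 in THC 1, 2 and 3. The February library of each genotype stood above the November ones, and within each batch the TKO sums lay above the THC sums. Csf1r did not pass (0.91, adjusted p = 0.054 in limma). Of 10 ependymal genes 3 passed as lower, but for all 10 the genotypes overlapped, and the median was 0.89 in February and -0.73 in November (-0.12 with both). Their sums were 9519, 7822 and 10372 in TKO 1, 2 and 3 and 5523, 18704 and 16451 in THC 1, 2 and 3, with THC 1 far below the other THC libraries. Foxj1 did not pass (0.54, adjusted p = 0.16 in limma). No marker of these lists was at 0 in any library. The part of these cell type differences in the replication gene values was not tested.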

How the data were processed

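RNA of sorted SVZ cells (at least 35 ng, RNA quality number at least 8.0) was made into libraries with SMART-Seq v4 and Nextera XT kits, per the labels' protocols. The submitters' processing notes name HISAT2, featureCounts of Subread, DESeq2 and GRCm38, and their versions and counting options are not given in the sources used. The authors' deposited table holds a normalized count per library (a signal scaled by 1 factor per library), a mean normalized count, a log2 fold change with its standard error and Wald score, a p-value with its adjusted form, and a weight (also a score), per the file headers. Every deposited value was a whole multiple of its library's step within 0.001 of a read (100% of values), which gives the depth quoted. No count test was run, because the step of 2 libraries lies close to 1 and their recovered reads did not meet the check set for treating them as counts.

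Tests used limma 3.58.1 (R 4.3.3) with an intensity trend on log2(normalized count + 1), batch plus genotype, on the 17278 genes at 10 or more in at least 3 libraries, with Benjamini-Hochberg adjustment over all of them (threshold 0.05). Within-group relative levels used the exact two-sided permutation test, with no adjustment. The samples are called biological replicates by the submitters, each a pool of mice. Libraries of the same genotype differed by more than sampling noise (chi-square per degree of freedom at least 15.5). Gene spans and exon lengths come from GENCODE M21 (GRCm38), which matched all 49 genes, and 10 genes have no promoter entry.

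The members and lists were chosen with earlier results of these data known. Genes given with every value were the highest and lowest signed change of each group and those that did not pass. Orc2 and Orc6 were added after their values were seen. Of the other replication genes, the 3 largest and 3 smallest changes were named. Promoter stretches follow the same extremes for ORC, the loaders and MCM2-7. Gmnn and Mcm4 have no entry.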

Additional observations from a re-analysis of the deposited data

How the results depend on the processing

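The settings tried were pseudocounts of 0.5 and 5, no filter on low values, a mean of at least 100, TMM scaling, no batch term, the replicate block, November only, the February pair only and leaving out each library. The planned edgeR and DESeq2 fits on recovered reads were not run. The number of replication genes called higher was 43 to 45 and the number called lower 0 in every fit with a test. The median change over the 49 genes was 1.08 to 1.35 when 1 library was left out, with the highest value without THC 3, and 1.13 to 1.30 in the other settings. Of the 49 genes, 46 kept direction and call in each of the 15 settings that gave a value (the mean of at least 100 leaves out Fen1), the exceptions being Orc2, Gins4 and Orc4. The calls of Orc2 and Gins4 ended with November only (adjusted p = 0.064 and 0.091) and without THC 1, THC 2, TKO 1 or TKO 2, and that of Gins4 also with no batch term (0.07). Orc4 was at -0.087 in the February pair. Pold4, of the wider list, was at 0.14 with November only, and ranged from -0.54 to 0.14 when 1 library was left out, with 0.14 without THC 1 and without TKO 1. With the batch term, leaving out either February library leaves the other without a partner, so both fits give the November value. Why the batches differed for Pold4 was not tested. With the replicate block 45 replication genes were higher and, over all genes, the genes called higher in TKO numbered 2147 and the genes called lower in TKO 1922, beside 2469 and 2345 without it. Same-numbered libraries did not deviate together throughout (r = 0.23, -0.11 and 0.14 for numbers 1, 2 and 3), so the numbers were not taken as pairs. Of the 280 relative levels within groups recomputed for 28 genes, 16 moved by more than 1 SD. Small relative differences could change sign within a single batch. Cdc45 was at -0.04 over all libraries and 0.02 in November. Gmnn was at 0.08 over all libraries and -0.05 in February, and Tipin at -0.05 and 0.04. Fen1, at a mean of 19.2 normalized counts over the 6 libraries, had the widest interval of the 49 genes, and the part of depth and of shared exons in its low count was not tested.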

Other observations

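The antisense gene Gm10143 (chromosome 19, 10198368 to 10202384, GRCm38) shares more exonic bases of Fen1 than any other gene. It had 70.3, 43.0 and 50.2 normalized counts in TKO libraries, against 24.1, 29.3 and 17.2 in THC libraries. Every TKO library was above every THC library, as for 19.4% of all genes tested. Because the library kits do not mark strand, reads from the bases shared with Fen1 cannot be assigned to either gene. Tmem258, whose first exons lie at the other end of Fen1, had 1122, 1566 and 1410.1 normalized counts in TKO and 928, 1208 and 1423 in THC, and its genotypes overlapped.

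Among the wider replication genes, the 3 subunits of ribonuclease H2, which removes ribonucleotides from DNA, rose by 0.80 (Rnaseh2a), 0.76 (Rnaseh2b) and 0.88 (Rnaseh2c) on the log2 scale. The adjusted p-values in limma were 0.001, 0.0052 and 0.014. For Rnaseh2c the genotypes overlapped. The factors of origin firing Ticrr, Mtbp, Topbp1 and Donson rose by 1.52, 1.14, 1.52 and 1.57. The FACT subunits Supt16 and Ssrp1, which form 1 histone chaperone, rose by 1.20 and 0.40 (adjusted p = 0.00013 and 0.049). The choice of these genes followed a look at their values.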
